A study of Arabidopsis thaliana with 6 samples.

Results

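The DNA damage checkpoint genes of Arabidopsis thaliana described here are ATR, ATM, SOG1, WEE1, SMR4, SMR5 and SMR7. They were chosen by name for their place in the checkpoint pathway, and every listed peak that the authors assigned to 1 of the 7 loci was taken, out of 37899 annotated nuclear genes, 27444 of them protein-coding. The data are anti-FLAG ChIP-seq, in which chromatin fixed with 1% formaldehyde for 10 min is pulled down through a FLAG tag and sequenced. Tagged seedlings carried pCND1-Flag, a FLAG-tagged CND1, in the cnd1-3 mutant background and are called CND1-FLAG. Their controls were untagged wild-type Col-0 seedlings, with the endogenous CND1 and no FLAG tag, so that peaks in Col-0 show the background of antibody and chromatin. Beside the tag, cnd1-3 and the transgene itself also separate the genotypes. Each genotype has 2 ChIP libraries and 1 input. The labels give neither the age of the seedlings, nor the number of transgenic lines, nor whether replicates are separate cultures of plants.

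The pathway links broken or stalled DNA to the cell cycle. ATM is the kinase known for answering double-strand breaks, and ATR the kinase known for answering stalled replication forks and single-stranded DNA. In plants both act on SOG1, a NAC-domain transcription factor that takes the place p53 has in animals. WEE1 is a kinase that inhibits cyclin-dependent kinases when replication is disturbed, and SMR4, SMR5 and SMR7 are small inhibitors of cyclin-dependent kinases of the SIAMESE family whose genes are switched on by DNA damage.

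Peaks were assigned to 3 of the 7 genes, ATR, SOG1 and SMR5, and no library had a peak assigned to ATM, WEE1, SMR4 or SMR7, although 1 CND1-FLAG peak assigned to another gene lies within ATM by the gene table. In each CND1-FLAG list, replicate 1 and replicate 2, 3 of 7 genes had a peak, against 1 of 7 in each Col-0 list. Among all protein-coding nuclear genes the same share was 32.4% and 27.4% in CND1-FLAG replicates 1 and 2, against 17.3% and 16.3% in Col-0 replicates 1 and 2. Among all annotated nuclear genes, non-coding ones included, it was 25.9% and 21.9% in CND1-FLAG, against 13.7% and 12.9% in Col-0. The CND1-FLAG lists were longer throughout, with 13044 and 10538 peaks against 6152 and 5722 in Col-0, or 11791 ± 1772 against 5937 ± 304.1 (mean ± SD, n = 2 each). Having no peak in any list was also the common state, found at 4 of 7 checkpoint genes, 58.5% of protein-coding genes and 66.8% of all annotated nuclear genes.

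Peaks of the 4 lists that overlapped by at least 1 bp were joined into a region. A region was called tagged-specific when it held peaks from both CND1-FLAG libraries and none from Col-0, and shared when a Col-0 peak lay in it as well. ATR and SMR5 had 1 tagged-specific region each, 2 of 7 genes, where 12.1% of protein-coding and 9.74% of all annotated nuclear genes have one. SOG1 had 1 shared region, 1 of 7 genes, where 12.5% of protein-coding and 9.95% of all annotated nuclear genes have one. ATR and SMR5 also had no Col-0 peak anywhere among their assigned peaks, and a peak in both CND1-FLAG lists with none in Col-0 is found at 9.72% of protein-coding and 7.79% of all annotated nuclear genes. With 7 genes, each gene moves such a share by 14.3 percentage points, and no test was made over genes that were chosen with these results known.

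**Figure D1:**
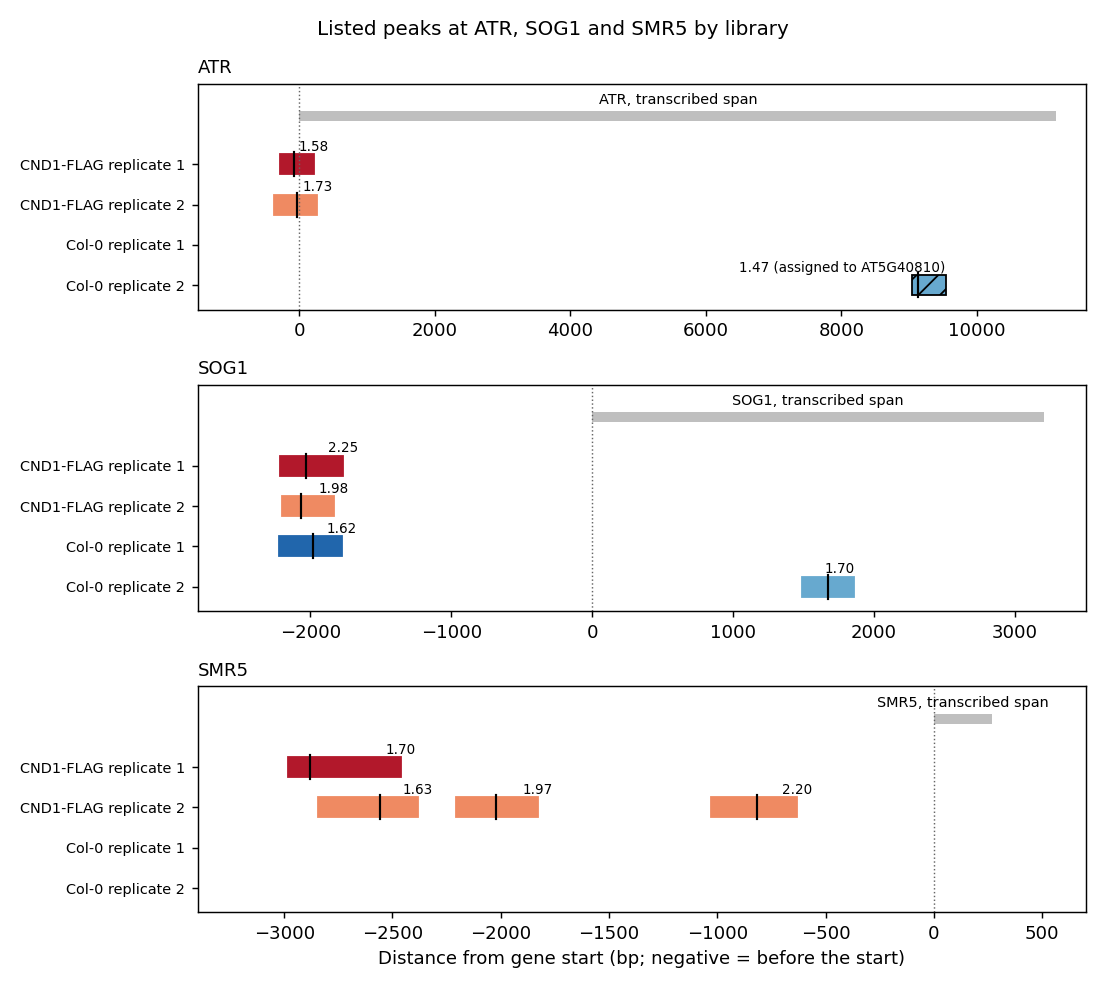
Peaks at ATR, SOG1 and SMR5 drawn as bars against the distance from the gene start in bp, with 1 row per library; the black tick is the summit, the number its fold enrichment, and grey bars are the transcribed spans. The ATR peaks cross the gene start in both CND1-FLAG libraries, the SOG1 peak lies about 2 kb before the start in 3 libraries, and the SMR5 peaks lie before the start in the CND1-FLAG libraries alone; the hatched Col-0 peak lies inside ATR but was assigned to AT5G40810.

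ATR (AT5G40820), the replication-stress kinase, lies on chromosome 5 from 16342728 to 16353898 on the minus strand of TAIR10. Its start carried a peak in both CND1-FLAG libraries and in neither Col-0 library. The deposited signal value is the fold enrichment of a peak's summit over its local background, and it was 1.58 in CND1-FLAG replicate 1 and 1.73 in CND1-FLAG replicate 2, with no listed peak in Col-0. The authors' −log10 q, their measure of significance, was 3.01 in replicate 1 and 4.28 in replicate 2. These are weak peaks for their lists: 9.52% of the nuclear peaks of replicate 1 and 27.6% of those of replicate 2 had a lower fold.

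The position at ATR was nearly the same in the 2 tagged libraries. In replicate 1 the peak spanned 16353687 to 16354184, and in replicate 2 it was somewhat wider, at 16353632 to 16354277. Its summits lay 84 and 30 bp before the gene start, 54 bp apart, and both peaks covered the start itself. The nearest Col-0 peak lay 6196 bp away, in Col-0 replicate 2, and was assigned to the neighbouring cohesin subunit gene SYN2 (AT5G40840). No peak in any list was assigned to AT5G40830, the gene between ATR and SYN2.

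Inside the ATR gene, Col-0 replicate 2 did have a peak, from 16344358 to 16344856, which the authors' annotation places in exon 13 of 16 of ATR. It was assigned to AT5G40810, a cytochrome c1 gene whose start was the nearest, and so does not count for ATR by assignment. Its fold was 1.47 and its −log10 q 1.53, and 11.99% of the nuclear peaks of that list had a lower fold. Neither CND1-FLAG list and not the other Col-0 list had a peak there. At ATR, then, the listed signal lay at the start in tagged plants and far inside the gene in 1 untagged library.

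SMR5 (AT1G07500), the inhibitor of cyclin-dependent kinases, is a short gene on chromosome 1 from 2304766 to 2305031, minus strand. It had 4 assigned peaks, all in CND1-FLAG and none in Col-0. The region found in both tagged libraries ran from 2307415 to 2308012, with a fold of 1.70 in replicate 1 and 1.63 in replicate 2 and a −log10 q of 3.81 in replicate 1 and 2.78 in replicate 2. Its peaks began 2460 and 2384 bp before the SMR5 start, and their summits were 323 bp apart, much farther than the 54 bp at ATR. The nearest Col-0 peak was 927 bp away, in Col-0 replicate 2 with a fold of 1.54, and was assigned to AT1G07520.

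Closer to the SMR5 start the 2 tagged libraries differed. CND1-FLAG replicate 2 had a peak from 2305661 to 2306060 with a fold of 2.20 and a −log10 q of 8.49, and another from 2306860 to 2307237 with 1.97 and 5.39. Their summits lay 815 and 2022 bp before the start. CND1-FLAG replicate 1 had neither, and Col-0 had neither. The strongest SMR5 peak, above 77.8% of the nuclear peaks of its list, is therefore seen in 1 tagged library of 2. In the TAIR10.1 gene table the span of another gene, ftsh10 (AT1G07510), which encodes a protease of mitochondria, encloses SMR5. Whether the peaks assigned to SMR5 by nearest start also lie within ftsh10 was not looked up. They are therefore not told apart from peaks of ftsh10.

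SOG1 (AT1G25580), the transcription factor on which both kinases act, lies on chromosome 1 from 8996714 to 8999917, minus strand. Its peak in both tagged libraries lay at a place where 1 untagged library had a peak too. The shared region ran from 9001684 to 9002139, with a fold of 2.25 and 1.98 in CND1-FLAG replicates 1 and 2, against 1.62 in Col-0 replicate 1. The −log10 q was 11.01 and 6.88 in CND1-FLAG, against 4.11 in Col-0 replicate 1, and Col-0 replicate 2 had no peak there. The tagged folds are the higher ones, but each list has its own depth and background, the lists as a whole differ the same way, and no test was made between them.

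Seen within its own list, the SOG1 peak stood above 79.0% and 58.1% of the nuclear peaks of CND1-FLAG replicates 1 and 2, against 41.5% in Col-0 replicate 1. The summits of the tagged libraries were 37 bp apart, and that of Col-0 replicate 1 was 49 bp from replicate 1 and 86 bp from replicate 2 of CND1-FLAG. They lay 2031 and 2068 bp before the SOG1 start in CND1-FLAG, against 1982 bp in Col-0 replicate 1. The region ends 146 bp from the transcribed end of the next gene, AT1G25682 (9002285 to 9004762, minus strand), so it lies between the 2 genes, nearer to the end of AT1G25682 than to the start of SOG1.

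Within the SOG1 gene a peak was found in Col-0 replicate 2 alone, from 8998057 to 8998425. Its fold was 1.70 and its −log10 q 3.79, and its summit lay 1675 bp after the gene start. SOG1 is thus the only checkpoint gene with a peak in both Col-0 lists, at 2 separate places, and 11.3% of protein-coding and 8.99% of all annotated nuclear genes have a peak in both Col-0 lists. Having a peak in both CND1-FLAG lists, as ATR, SOG1 and SMR5 do, applies to 23% of protein-coding and 18.3% of all annotated nuclear genes.

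**Figure D2:**
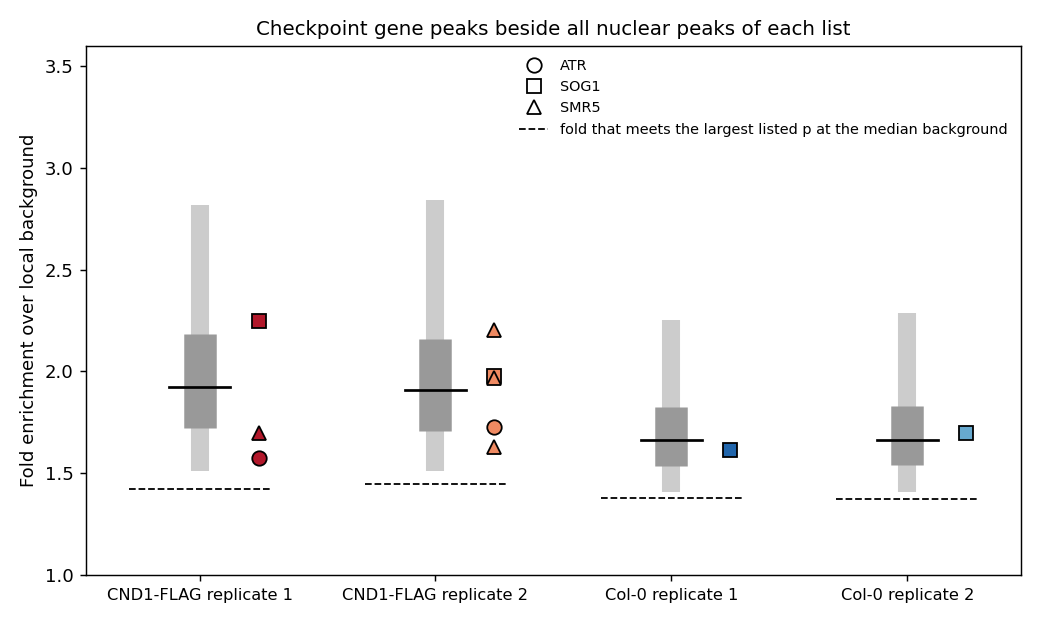
Fold enrichment over local background of each checkpoint gene peak (symbols) beside all nuclear peaks of the same list (black line, median; dark bar, 25th to 75th percentile; light bar, 5th to 95th percentile). In the CND1-FLAG lists the ATR peaks lie under the median and the SOG1 peaks above it, with SMR5 on either side of it in replicate 2; in Col-0 the SOG1 peak is just under the median in replicate 1 and just above it in replicate 2.

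The tagged-specific regions of ATR and SMR5 were low within their own class. The median fold of the 4011 nuclear tagged-specific regions was 1.94 in CND1-FLAG replicate 1 and 1.91 in replicate 2. At ATR, 8.73% of these regions had a lower fold in replicate 1 and 27.3% in replicate 2, and for the SMR5 region the shares were 19.9% and 15.5%. The SOG1 region lay nearer the middle of its class or above it, with 68.4% and 50.5% of 4038 shared regions lower in replicates 1 and 2.

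The number of fragments behind each summit was worked out from its fold and its p-value. At the ATR start it was 80 fragments in CND1-FLAG replicate 1, with an exact Poisson 95% interval of 63.4 to 99.6, over a background of 50.4, and 83 fragments in replicate 2, with an interval of 66.1 to 102.9, over a background of 47.6. At the SMR5 region it was 76 fragments over 44.3 in replicate 1 and 66 over 40.1 in replicate 2, and at the nearest SMR5 peak 84 over 37.6 in replicate 2. At SOG1 it was 103 over 45.3 and 89 over 44.5 in CND1-FLAG replicates 1 and 2, against 155 fragments in Col-0 replicate 1, which count as 112 over 69.0 after the scaling that the p-values imply. The intervals cover counting error only, and a peak is listed because it exceeds its background, so that excess is no separate result.

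**Figure D3:**
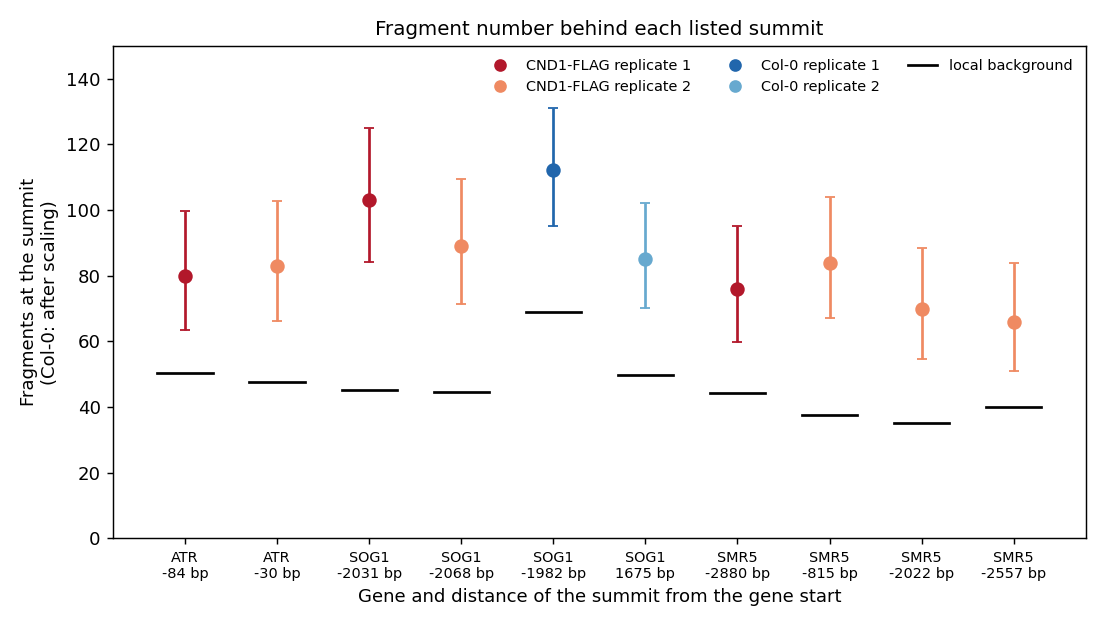
Fragments at each listed summit of ATR, SOG1 and SMR5 (points, with exact Poisson 95% intervals; Col-0 values after scaling) and the local background (black lines), by gene and distance of the summit from the gene start. The gaps between point and background run from 66 over 40.1 at SMR5 in CND1-FLAG replicate 2 to 103 over 45.3 at SOG1 in CND1-FLAG replicate 1.

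What a list can miss depends on the local background. At the median background of its listed nuclear summits, the largest p among a list's nuclear peaks is met at a fold of 1.42 and 1.45 in CND1-FLAG replicates 1 and 2, against 1.38 and 1.37 in Col-0 replicates 1 and 2. Where the background is higher a lower fold is enough, and the lowest listed nuclear fold of a list ran from 1.16 in CND1-FLAG replicate 1 to 1.25 in Col-0 replicate 1. The background at ATM, WEE1, SMR4 and SMR7, and that of Col-0 at the ATR start and the SMR5 region, was not analysed here, so a missing peak does not show that enrichment is absent there.

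ATM (AT3G48190), the double-strand-break kinase, was assigned no peak in any of the 4 lists, and no feature label in them names it. The closest peak by gene order belonged to AT3G07885, the gene 2 places after ATM in the TAIR10.1 table, in CND1-FLAG replicate 1 alone. That peak, from 17826650 to 17827028 on chromosome 3, had a fold of 1.91 and a −log10 q of 4.28. It lay 4260 bp before the start of AT3G07885, towards ATM, and is labelled 3' UTR without a gene. By the TAIR10.1 gene table the peak lies within the span of ATM, a comparison made after its value was seen and across 2 versions of the annotation. For all 12573 genes that lists and table both hold, the span in the lists lay within that in the table. Spans in the table can thus be wider than those in the lists, so whether the peak lies within ATM in TAIR10 was not settled. Its distance to the ATM start was not worked out. Inside ATR, by contrast, the authors' own label names the exon. The other tagged library and both Col-0 libraries had no peak assigned to AT3G07885.

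WEE1 (AT1G02970), the kinase that inhibits cyclin-dependent kinases, was assigned no peak in any list and stood in the widest empty stretch of the 7 genes. The nearest genes with a peak in any list were LPA1 (AT1G02910), 8 genes before it, and AT1G03040, 7 genes after it. LPA1 had its peak in CND1-FLAG replicate 2, and AT1G03040 had one in both CND1-FLAG lists. By the same table no peak of any list lay within WEE1, nor within SMR4 or SMR7. Going outwards, the nearest genes with a Col-0 peak were 25 genes before and 8 genes after WEE1.

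SMR4 (AT5G02220), also an inhibitor of cyclin-dependent kinases, was assigned no peak in any list. Its nearest genes with a peak were FHL (AT5G02200), 3 genes before it, a factor of phytochrome A signalling, and EMB2730 (AT5G02250), 4 genes after it. Both had their peak in CND1-FLAG replicate 1 alone. The FHL peak crossed the FHL start and had a fold of 1.87.

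SMR7 (AT3G27630), the third damage-induced inhibitor, was assigned no peak in any list, but both of its immediate neighbours were. AOX1C (AT3G27620), an alternative oxidase of mitochondria, had a peak in CND1-FLAG replicate 1 with a fold of 1.83, from 10229360 to 10229940. AT3G27640, on the other side, had one with a fold of 1.91 in CND1-FLAG replicate 1, against 1.59 in Col-0 replicate 1. CND1-FLAG replicate 2 and Col-0 replicate 2 had no peak at either neighbour. Of the 4 genes without a peak, SMR7 is thus the one with peaks on both sides, in 1 tagged library.

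**Figure D4:**
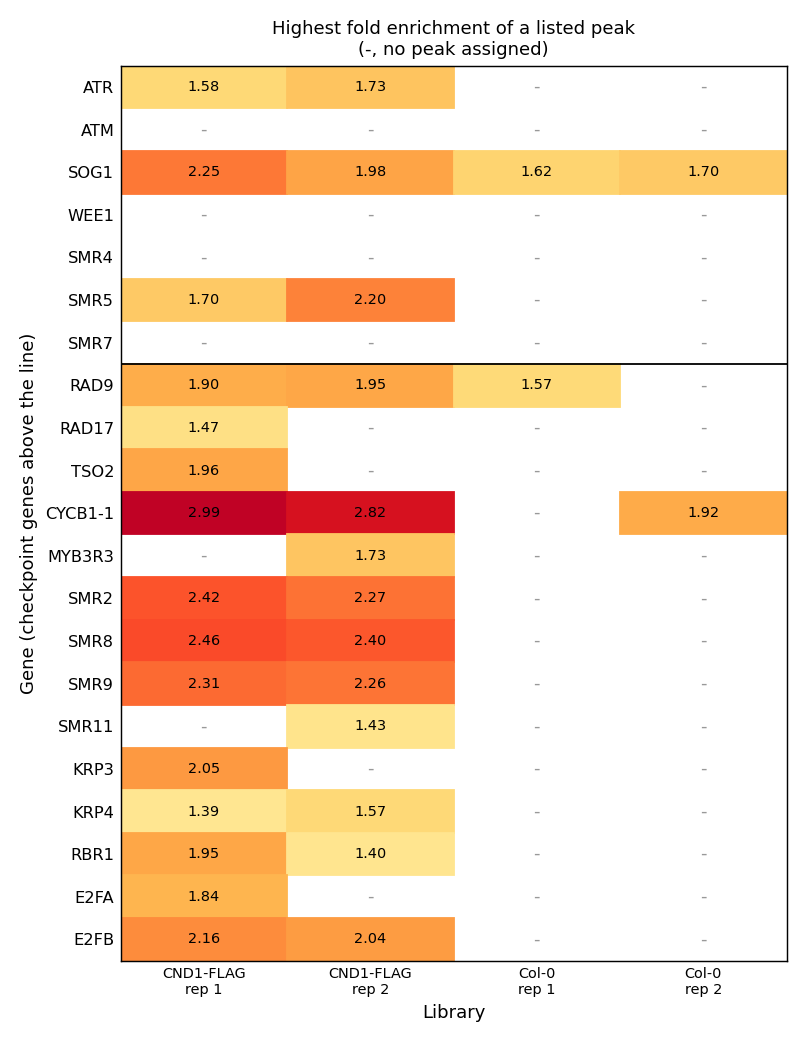
Highest fold enrichment of a listed peak assigned to each gene, by library; a dash marks no assigned peak. The 7 checkpoint genes stand above the line and, below it, the genes with any peak among 43 others of the pathway; SOG1 is the only gene shown with a value in all 4 columns.

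Of the 43 other genes looked up around the 7, in 5 lists, 6 had a tagged-specific region, or 14%, near the 12.1% of protein-coding genes. Of 7 genes for damage sensors and mediators, 0 had a tagged-specific region and 1 a shared one, where 12.1% and 12.5% of protein-coding genes do. The shared one was RAD9 (AT3G05480), a subunit of the clamp that helps to activate ATR, with a fold of 1.90 and 1.95 in CND1-FLAG replicates 1 and 2, against 1.57 in Col-0 replicate 1. RAD17, of the loader of that clamp, had a peak in CND1-FLAG replicate 1 alone, with a fold of 1.47. The ATR partner SUV2 (AT5G45610) and the break sensors MRE11, RAD50 and NBS1 had no peak in any list.

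Of 9 genes known as targets of SOG1 or regulators below it, 0 had a tagged-specific region and 1 a shared one, again beside 12.1% and 12.5% of protein-coding genes. That was CYCB1-1 (AT4G37490), a cyclin of mitosis that DNA damage induces, with the highest folds of all genes listed here. Its fold was 2.99 and 2.82 in CND1-FLAG replicates 1 and 2, against 1.92 in Col-0 replicate 2. Within their own lists these peaks stood above 96.2% and 94.7% of nuclear peaks in CND1-FLAG, against 82.5% in Col-0 replicate 2. The peak was thus strong in 1 untagged list too, while Col-0 replicate 1 had no peak assigned to CYCB1-1. No test was made between lists. Summits lay 487 and 481 bp before the start in CND1-FLAG, against 466 bp in Col-0 replicate 2. TSO2, a subunit of ribonucleotide reductase, had a fold of 1.96 in CND1-FLAG replicate 1 alone, and MYB3R3, a repressor of mitotic genes, 1.73 in CND1-FLAG replicate 2 alone. BRCA1, PARP1, PARP2 and the NAC factors NAC044 and NAC085, through which SOG1 acts on the cell cycle, had no peak in any list.

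The SIAMESE family beyond SMR4, SMR5 and SMR7 gave regions with higher folds than SMR5. Of its 11 other members, 3 had a tagged-specific region, or 27.3%, beside 12.1% of protein-coding genes. None had a peak in either Col-0 list, beside 17.3% and 16.3% of protein-coding genes in Col-0 replicates 1 and 2. With 11 genes, nothing particular to the family is read from these shares. SMR2 (AT1G08180) had a fold of 2.42 in CND1-FLAG replicate 1 and 2.27 in replicate 2, SMR8 (AT1G10690) 2.46 and 2.40, and SMR9 (AT1G51355) 2.31 and 2.26. In all 3 the summits lay between 285 and 441 bp after the gene start, and each fold was above that of any SMR5 peak, of which the highest was 2.20. SMR11 had a fold of 1.43 in CND1-FLAG replicate 2 alone, and 7 of the 11 had no peak in any list. The list was written with earlier results of these data known, and no test was made of it.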

How the data were processed

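Peaks of the 4 ChIP libraries were taken as listed by the authors. Per the submitters' processing notes, fastp 0.19.11, BWA 0.7.12 and MACS2 2.1.0 were used with TAIR10; the sources used here name neither the control nor the threshold of a list, and the lowest −log10 q was 1.30 in all 4. Replicates were listed separately. Per the file headers, the deposited values are a ratio, which is the fold enrichment of the summit, p and q columns in −log10 form, and a score, found to be 10 times −log10 q rounded down; other deposited columns hold positions and distances in bp. Promoter in the authors' labels means within 3 kb of a gene start, and each peak carries the gene with the nearest start.

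Summits listed under identical coordinates were treated as 1 peak with the fold of its strongest summit (Python 3.11.15, pandas 2.3.3, scipy 1.17.1). Fragments were solved from fold (1 added to both pile-up and background before dividing) and the Poisson p: they came out whole, to within 0.002 of the listed −log10 p, for at least 99.98% of nuclear summits of each list, with a scale of 0.723 and 0.739 for Col-0 replicates 1 and 2 found on 25 summits each. Library totals were not analysed here. The joining of peaks into regions and the solving of fragments were tested on simulated data. The simulated regions lay far apart, so closely spaced peaks, as at SMR5, were not covered by that test. Gene names and gene order come from the TAIR10.1 gene table, no coordinate of which is printed; whether a peak lies in the table's span of a gene was looked up after the data were seen. No genome sequence was used, so none is shown.

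All 7 checkpoint genes are described, together with the genes of 5 other lists, 43 genes, that have a tagged-specific region or a peak in both lists of a genotype; other genes named were chosen after their values were seen. The genes and lists were chosen with earlier results of these data known. Results are counts and listed values with no test, since 2 libraries against 2 give none on presence of a peak. Alternatives were a −log10 q of at least 5, a fold of at least 2, the stronger 50% of each list by q, every list shortened to 5722 peaks, a reciprocal overlap of 50%, a Col-0 peak within 500 bp, other gene assignments and each library left out.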

Additional observations from a re-analysis of the deposited data

How the results depend on the processing

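The counts of checkpoint genes rest on weak peaks. With a −log10 q of at least 5, 1 gene had a tagged-specific region, 0 a shared one, 1 a peak in both CND1-FLAG lists and 0 a peak in both Col-0 lists; the 1 gene is SOG1, whose Col-0 peak falls away at that threshold while ATR and the SMR5 region do not reach it. With a fold of at least 2 all 4 counts were 0. In the stronger 50% of each list by q, and with every list shortened to 5722 peaks, 0 genes had a tagged-specific region and 1 had a peak in both CND1-FLAG lists. By overlap with the gene span or the 1 kb before its start, worked out for ATR, SOG1 and SMR5, whose spans the lists give, the counts were 1 (ATR), 0, 1 and 0 in the order above. Leaving out 1 library at a time, the tagged-specific count ran from 2 to 3 and the shared count from 0 to 1. With a CND1-FLAG library left out, a peak in the other one was enough. With a Col-0 library left out, only the other one could exclude a region. The tagged-specific count could therefore not fall, and its staying up is no support. Without Col-0 replicate 1 the SOG1 region became tagged-specific. Without CND1-FLAG replicate 1, SMR5 had 3 such regions, of which only 1 held peaks from both CND1-FLAG libraries. A reciprocal overlap of 50%, a Col-0 peak within 500 bp and the gene named in the feature label left these 4 counts as they were. By the feature label, however, ATR has a peak in Col-0 replicate 2 and no longer counts as a gene without any Col-0 peak. The genes with no peak numbered 4 or 5 under the alternatives that could be run. No paired analysis was possible because the results come from no test.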

Other observations

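The KRP inhibitors, a second family that inhibits cyclin-dependent kinases, and the kinases and E2F factors they act through were also looked up. KRP4 (AT2G32710) was the only one of 7 KRP genes with a tagged-specific region, beside 12.1% of protein-coding genes. Its fold was 1.39 in CND1-FLAG replicate 1 and 1.57 in replicate 2. These are weak peaks, with 0.65% and 9.89% of the nuclear peaks of replicates 1 and 2 lower. KRP3 had a peak of 2.05 in CND1-FLAG replicate 1 alone. None of the 7 had a Col-0 peak, which 17.3% and 16.3% of protein-coding genes have in Col-0 replicates 1 and 2. Of 9 genes for cyclin-dependent kinases, E2F factors and RBR1, 2 had a tagged-specific region and 0 a Col-0 peak, beside the same shares of protein-coding genes; with so few genes no difference from them is read. E2FB (AT5G22220), an E2F transcription factor, had a fold of 2.16 in replicate 1 and 2.04 in replicate 2, with summits 319 and 308 bp after the start. RBR1 (AT3G12280), the retinoblastoma-related protein that holds E2F factors in check, had its region at the start, as ATR did, with 1.58 in replicate 1 and 1.40 in replicate 2. It was near the floor of its lists, with 9.83% and 0.605% of the nuclear peaks of replicates 1 and 2 lower. CND1-FLAG replicate 1 alone had a further RBR1 peak inside the gene, with a fold of 1.95. None of the 5 genes for cyclin-dependent kinases in the list had a peak in any library.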
